A study of Mus musculus with 4 samples.

Results

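Transcripts of 9 genes that mark haematopoietic stem and progenitor cells (Cd34, Kit, Meis1, Hoxa9, Hlf, Gata2, Myb, Sox4 and Mecom) were examined in spleen cells of UVB-exposed mice. The members were the rows of the count table whose Ensembl identifiers map to these 9 symbols, and all 9 were found among 25509 gene rows. The libraries came from 2 groups of 8-week-old mice with shaved backs, wild-type mice exposed to UVB (2 libraries) and Trim21-/- mice exposed to UVB (2 libraries, called knockout here). Both groups received UVB at 100 mJ/cm2, for 1 or 3 weeks, and the labels do not say which applies to these spleens. Trim21 is a ubiquitin ligase that also binds antibodies inside the cell. The labels give neither the part of Trim21 that the allele lacks nor whether spleens were pooled, and unexposed mice were not analysed here. RNA was taken from whole spleen suspensions passed through a filter, with no sort for any cell type, so fewer cells of a type and less RNA per cell cannot be told apart.

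Blood stem cells sit mostly in the bone marrow, and a small number of stem and progenitor cells lodge in the mouse spleen, where blood formation can expand under stress. Kit is the receptor for stem cell factor, Cd34 is a surface sialomucin of progenitors, and the other 7 members are transcription factors that hold or prepare cells for lineage choice. Most of the 9 are not confined to stem cells: Kit and Gata2 are also active in mast cells and basophils, Cd34 in endothelium and stroma, Myb in dividing erythroid and lymphoid precursors, and Sox4 in lymphoid cells.

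Of the 9 genes, Cd34 rose in the knockout (log2 fold change 2.97 ± 0.57 (SE), edgeR adjusted p 0.027) and 0 fell. Kit, the gene most often used with Cd34 to define progenitors, had overlapping levels in the groups (0.23 ± 0.48, adjusted p 0.77). Meis1 and Sox4 had lower values in both knockout libraries and Hoxa9 and Gata2 higher values, and these 4 did not pass the test. Genes of committed granulocyte and erythroid progenitors rose in the same libraries, 7 of 10 and 8 of 10. Among 13532 tested genes 5.9% passed as higher and 0.392% as lower, 6.29% in all.

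The promoter of the member that rose is shown with those of Sox4, the member with the lowest fold change, and of Gata2, whose 2 annotated starts a count per gene cannot separate. Each is the 250 bases before a RefSeq start on GRCm38.p6, 5′ to 3′ on the gene's strand, at chr1:194938571-194938820 (plus strand) for Cd34, chr13:28953700-28953949 (minus) for Sox4, and chr6:88193641-88193890 and chr6:88198414-88198663 (plus) for the distal and proximal starts of Gata2. Capitals mark the Myb core AACNG and the CCAAT box, searched on both strands.
Cd34: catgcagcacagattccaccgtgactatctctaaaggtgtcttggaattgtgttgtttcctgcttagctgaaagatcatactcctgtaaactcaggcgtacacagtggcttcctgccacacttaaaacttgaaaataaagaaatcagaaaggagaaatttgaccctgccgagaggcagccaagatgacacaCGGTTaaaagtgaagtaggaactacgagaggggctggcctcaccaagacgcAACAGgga
Sox4: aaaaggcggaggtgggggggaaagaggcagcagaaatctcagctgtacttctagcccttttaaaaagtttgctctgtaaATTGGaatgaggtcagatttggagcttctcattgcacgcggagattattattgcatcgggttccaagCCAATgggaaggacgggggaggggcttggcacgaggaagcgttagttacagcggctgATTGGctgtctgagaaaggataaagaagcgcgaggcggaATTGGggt
Gata2 distal: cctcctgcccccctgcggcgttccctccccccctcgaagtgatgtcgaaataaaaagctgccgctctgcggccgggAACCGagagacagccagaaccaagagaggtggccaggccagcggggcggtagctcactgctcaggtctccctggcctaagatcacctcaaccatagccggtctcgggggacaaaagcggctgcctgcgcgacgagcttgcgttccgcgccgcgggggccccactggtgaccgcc
Gata2 proximal: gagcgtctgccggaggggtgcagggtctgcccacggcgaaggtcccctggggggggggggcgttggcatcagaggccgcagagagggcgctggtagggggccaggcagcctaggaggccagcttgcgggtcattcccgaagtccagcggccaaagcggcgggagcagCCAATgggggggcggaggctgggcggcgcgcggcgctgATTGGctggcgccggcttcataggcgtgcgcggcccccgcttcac
The Cd34 window held 2 Myb cores, where 42.0% of 32851 RefSeq windows of this length held at least 2, and no CCAAT box. The Sox4 window held 4 CCAAT boxes, a number that 0.84% of windows reached, where 33.8% held at least 1. The distal Gata2 window held 1 Myb core, a match found in 74.2% of windows, and the proximal one 2 CCAAT boxes. Of the GATA motif only the forms AGATAA and TGATAA were searched. At least one was present in 16.6% of windows, and none of these 4 held either. The form AGATAG was not searched, and the Cd34 window holds it on the other strand, as ctatct. The share of all windows with that form was not computed. Base composition differed between these windows as well. G and C made up 46.4% of the Cd34 window and 50.8% of the Sox4 window, against 67.2% and 74.0% at Gata2. The median of all windows was 52.4%.

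Library totals ran from 36173694 to 41924885 counts. Libraries numbered 1 had almost no Xist and 108 to 109 CPM (counts scaled to a common library size) over 4 Y-linked genes, and libraries numbered 2 had 288 to 932 CPM of Xist and 0 of the Y-linked genes. With 1 library of each pattern per genotype, the libraries of a genotype stem from different mice, and values within each number are given beside the pooled ones. Haemoglobin genes took 4.03% to 8.25% of wild-type and 14.9% to 30.7% of knockout counts. Trim21 itself was still counted, with 1237 and 1912 wild-type counts and 345 and 882 knockout counts (log2 fold change -1.02 ± 0.42, adjusted p 0.17, and 0.020 when wild-type library 1 was left out), which does not check the genotype since the deleted part is not given.

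Per exon length, as TPM, a unit that divides by exon length and allows levels of different genes to be set side by side within a library, Myb was the most abundant member in all 4 libraries (5.0 and 16.1 TPM in wild type, 4.02 and 13.9 in knockout). In wild type Kit (3.52 and 6.67 TPM) and Sox4 (3.29 and 7.37) came next and changed places between the libraries, followed by Gata2 (1.96 and 1.92). Meis1 (0.347 and 0.535 TPM) lay above Cd34 (0.221 and 0.363), Hlf (0.212 and 0.239) and Hoxa9 (0.131 and 0.0374) in both wild-type libraries, although over the libraries the range of Cd34 overlapped those of Meis1 and Hlf. In knockout Cd34 stood at 0.491 and 2.09 TPM, above Meis1 at 0.0733 and 0.155 in each library. The order of Meis1 and Cd34 was thus opposite in the wild-type and knockout libraries. Mecom was last in every library, at 0 in wild type and 0.0198 and 0.0138 TPM in knockout. TPM is not used between genotypes here, since haemoglobin transcripts take a different share of it in each library.

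**Figure D1:**
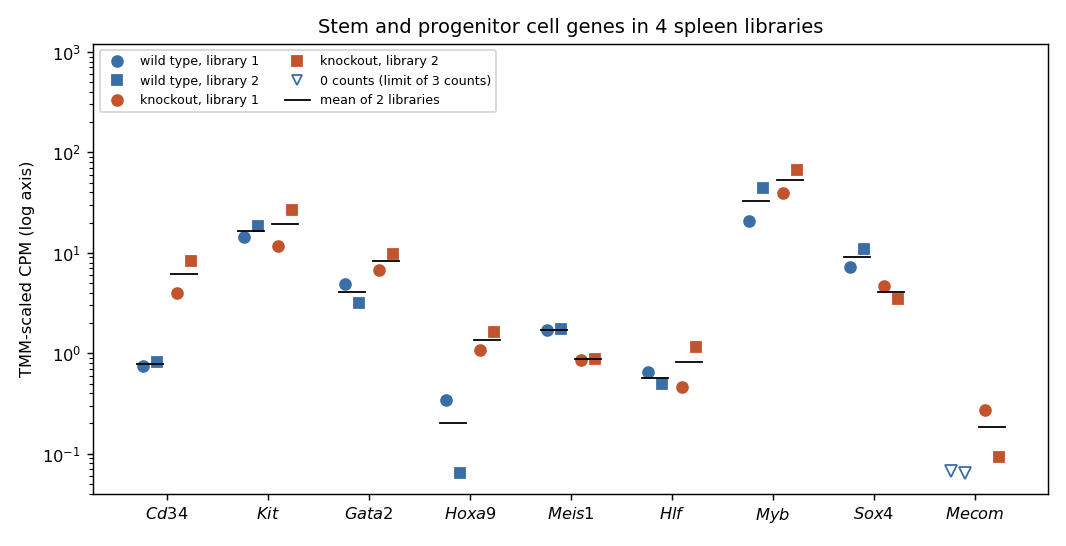
CPM (log axis) of the 9 genes in each library, circles for libraries 1 and squares for libraries 2, with a bar at the mean of 2 libraries. Cd34 is at 0.745 and 0.813 CPM in wild type and at 3.97 and 8.22 CPM in knockout, while the points of Kit, Hlf and Myb overlap between genotypes, and open triangles stand for 0 counts of Mecom at the level of 3 counts.

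Of the 9 members, 8 had enough counts to be tested and Mecom did not. Hoxa9 passed the filter on low counts through its knockout libraries and 1 wild-type library, so counts and medians over the 8 describe them and support nothing. Their median log2 fold change was 0.615, against -0.056 over all tested genes. Both knockout libraries lay above both wild-type libraries for 3 members (Cd34, Hoxa9 and Gata2), where 30.3% of all tested genes did so, and below them for 2 (Meis1 and Sox4), where 30.1% did. The other 3 overlapped. These shares are close to those of all genes. Other fits call other shares of the table as higher and lower, against which their counts are read: 11.6% and 6.86% by DESeq2, 6.58% and 0.495% by limma-voom, 5.78% and 10.2% with library totals alone, 7.36% and 2.82% with no filter, and 22.4% and 19.7% with the library number as a block. With a library left out they were 16.4% and 14.6% (wild-type library 1), 10.8% and 4.24% (wild-type library 2), 4.23% and 0.211% (knockout library 1), and 6.3% and 1.61% (knockout library 2).

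Cd34 (ENSMUSG00000016494, GRCm38 chromosome 1, 194938819 to 194961279, plus strand, 7 exon blocks) encodes the sialomucin by which progenitors of mouse and human are sorted. It had 33 and 38 wild-type counts and 102 and 355 knockout counts, or 0.745 and 0.813 CPM against 3.97 and 8.22 CPM. Both knockout libraries were higher, and they differed from each other more than the wild-type libraries did. The mean moved from 0.779 ± 0.0483 to 6.09 ± 3.0 CPM (SD, n = 2 per genotype), a 7.82-fold higher level, with a 95% interval of 1.62 to 4.31 for the log2 fold change. Its log2 difference was 2.41 between libraries 1 and 3.34 between libraries 2. Without knockout library 2 the log2 fold change was 2.35 and did not pass (adjusted p 0.092), and it passed without any other single library. The 3 protein-coding genes whose levels followed those of Cd34 most closely over the 4 libraries, by Euclidean distance of centred log2 CPM among 10927 genes, were Tarm1 (0.285), Gca (0.304) and Dach1 (0.378). Gca encodes the calcium-binding protein grancalcin of neutrophils, and Tarm1 a receptor of myeloid cells. With knockout library 2 left out Tarm1 did not pass (adjusted p 0.058).

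Kit (ENSMUSG00000005672, chromosome 5, 75574916 to 75656722, plus strand) had 643 and 855 wild-type counts and 304 and 1154 knockout counts. Its levels were 14.5 and 18.3 CPM against 11.8 and 26.7 CPM, so the knockout libraries lay on either side of both wild-type libraries. The 95% interval of the log2 fold change ran from -0.89 to 1.36, which leaves room for a change of more than 2-fold upward. Libraries 1 differed by -0.29 and libraries 2 by 0.55 on the log2 scale, and the pooled value was -0.17 with library totals alone. Kitl, which encodes the ligand of Kit, had 13 and 57 wild-type counts and 20 and 28 knockout counts (0.293 and 1.22 against 0.779 and 0.648 CPM). Its direction was not stable, at -0.09 ± 0.81, or 0.21 by limma-voom and 1.27 without wild-type library 2. Of 15 genes of the Kit signalling pathway, 1 had a higher and 14 a lower fold change, and 0 passed by edgeR (3 lower and 0 higher with an unadjusted p under 0.05; 2 lower by DESeq2, 0 by limma-voom). The lowest p belonged to Fyn (-1.14 ± 0.37), a Src-family kinase, and Sh2b3 (-1.09 ± 0.37), an adaptor that restrains cytokine signalling, with adjusted p of 0.11 and 0.12. When wild-type library 1 was left out, 5 genes of the pathway passed as lower, and 1 did when wild-type library 2 was, while 3 did with library totals alone. The list's median was -0.68, and those of T and B cell markers were -1.11 and -1.18. The part of lymphocyte RNA in these values was not tested.

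Gata2 (ENSMUSG00000015053, chromosome 6, 88193891 to 88207032, plus strand) encodes the zinc finger factor that maintains stem cells and starts mast cell and erythroid programmes. It had 217 and 149 wild-type counts and 172 and 422 knockout counts, or 4.90 and 3.19 against 6.70 and 9.77 CPM. The knockout libraries were both higher, at a log2 fold change of 1.03 ± 0.46 that did not pass (adjusted p 0.20, 95% interval -0.05 to 2.10). Its value was 1.36 when wild-type library 1 was left out (adjusted p 0.049) and 0.75 when wild-type library 2 was (adjusted p 0.38), and it was 0.60 with library totals alone. Gata1, the factor that takes the place of Gata2 as erythroid cells mature, rose in the same libraries by 4.31 ± 0.49 (adjusted p 0.011). Gata3, the T cell member of the family, had a log2 fold change of -1.14 ± 0.41 (adjusted p 0.13, and 0.020 when wild-type library 1 was left out). The 3 GATA genes thus had point values on both sides of 0. Of 8 tested markers of mast cells and basophils 4 rose, whereas Kit and Gata2 did not pass. The summed level of the list was 17.6 to 28.6 CPM in wild type and 182 to 193 CPM in knockout. The genes that rose were the basophil proteases Mcpt8 (4.77) and Prss34 (5.64), Cpa3 (3.14) and the histamine-forming enzyme Hdc (2.32, and adjusted p 0.071 without knockout library 2), while the mast cell tryptase Tpsab1 was at 0 in every library. The mast cell proteases Cma1 (-0.14, adjusted p 0.89) and Mcpt4 (0.73, adjusted p 0.55) did not pass, nor did the IgE receptor genes Fcer1a (2.08, adjusted p 0.092) and Ms4a2 (1.72, adjusted p 0.11). Their part in the values of Kit and Gata2 was not tested.

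Hoxa9 and Meis1 encode homeobox proteins that bind DNA together and drive self-renewal of progenitors. Hoxa9 (ENSMUSG00000038227, chromosome 6, 52223100 to 52231089, minus strand) had 15 and 3 wild-type counts and 28 and 71 knockout counts, or 0.339 and 0.0642 against 1.09 and 1.64 CPM. Every knockout value was higher, with a log2 fold change of 2.76 ± 0.87 that did not pass (adjusted p 0.10, 95% interval 0.71 to 4.80). The wild-type library with 3 counts set much of that size: the log2 fold change was 4.34 without wild-type library 1 (adjusted p 0.0062) and 2.01 without wild-type library 2 (adjusted p 0.16). The difference was 1.69 between libraries 1 and 4.68 between libraries 2. Meis1 (ENSMUSG00000020160, chromosome 11, 18879817 to 19018985, minus strand) had 75 and 81 wild-type counts and 22 and 38 knockout counts. Its levels of 1.69 and 1.73 CPM in the wild-type and 0.856 and 0.880 CPM in the knockout libraries did not overlap, and the libraries of each genotype were close to each other. The log2 fold change of Meis1 was -0.98 ± 0.56 (adjusted p 0.29, 95% interval -2.28 to 0.33), and it was -0.98 both between libraries 1 and between libraries 2. Of 9 tested cofactors of Hox and Meis proteins 0 passed by edgeR in either direction (2 higher and 1 lower with an unadjusted p under 0.05; 1 and 1 by DESeq2, 0 by limma-voom). The lowest p belonged to Kmt2a (-2.31 ± 0.69, adjusted p 0.090), the methyltransferase that keeps Hox genes active, and to the partner homeobox gene Pbx3 (1.40 ± 0.42, adjusted p 0.092). Kmt2a stood at 113 and 442 CPM in the wild-type and 38.6 and 73.4 CPM in the knockout libraries, so its size rested on wild-type library 2: it was -1.01 when that library was left out (adjusted p 0.084). It passed when wild-type library 1 (-2.99) or knockout library 2 (-2.84) was left out, and Pbx3 passed when wild-type library 2 was left out (1.56, adjusted p 0.039). The list's median was -0.12, or 0.08 without knockout library 1.

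Hlf, Myb and Sox4 are factors of stem cells, cycling progenitors and early lymphoid cells. Hlf (ENSMUSG00000003949, chromosome 11, 90336536 to 90390895, minus strand) had 29 and 23 wild-type counts and 12 and 50 knockout counts, or 0.655 and 0.492 against 0.467 and 1.16 CPM. The groups overlapped and the log2 fold change of Hlf, 0.52 ± 0.71, was negative without knockout library 2 (-0.29). At this depth its 95% interval was -1.14 to 2.19. Myb (ENSMUSG00000019982, chromosome 10, 21124935 to 21160984, minus strand) had 916 and 2071 wild-type counts and 1023 and 2881 knockout counts, or 20.7 and 44.3 against 39.8 and 66.7 CPM. Within each library number the knockout was higher, by 0.95 and 0.59 on the log2 scale, while wild-type library 2 lay above knockout library 1. The pooled log2 fold change of Myb was 0.71 ± 0.49 (adjusted p 0.37), and its size moved with the libraries used and with the scaling. Leaving out wild-type library 2 gave 1.37 (adjusted p 0.026) and leaving out wild-type library 1 gave 0.25 (adjusted p 0.70), with 0.30 when knockout library 2 was left out and 0.25 with library totals alone. Genes of dividing cells were higher beside it, 11 of 12 having risen, with a summed level of 480 to 883 CPM in wild type and 3530 to 4490 CPM in knockout. Their part in the value of Myb was not tested.

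Sox4 (ENSMUSG00000076431, chromosome 13, 28948919 to 28953713, minus strand, 1 exon) had 323 and 508 wild-type counts and 119 and 150 knockout counts. Its levels were 7.29 and 10.9 CPM against 4.63 and 3.47 CPM, lower in both knockout libraries. The log2 fold change was -1.17 ± 0.44 (adjusted p 0.15, 95% interval -2.20 to -0.13), with -0.65 between libraries 1 and -1.65 between libraries 2. Leaving out wild-type library 1, Sox4 passed (-1.44, adjusted p 0.022), and leaving out wild-type library 2 it did not (-0.85, adjusted p 0.31). Its exon shares 2616 bases with the antisense transcript Gm26735, which had 109 and 126 wild-type counts and 46 and 144 knockout counts, and the strand setting of the counting is not given, so reads of the pair cannot be told apart. T and B cell markers were lower beside Sox4, all 10 of each list by point value, with sums of 874 to 1220 and 6270 to 7450 CPM in wild type and 465 to 510 and 3250 to 4080 CPM in knockout. In those lists 0 genes passed by edgeR or limma-voom (8 T and 5 B cell genes with an unadjusted p under 0.05, and 4 and 5 by DESeq2). Their part in the value of Sox4 was not tested.

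Mecom (ENSMUSG00000027684, chromosome 3, 29951296 to 30548008, minus strand), which encodes the stem cell factor EVI1, had 0 and 0 wild-type counts and 7 and 4 knockout counts. A count of 0 allows up to 3 counts, or 0.068 and 0.064 CPM, in the wild-type libraries. The knockout levels were 0.272 and 0.0926 CPM, and the ratio of their mean to the mean of those limits was 2.8. The counting error of the 7 and 4 knockout counts is not in this ratio, so it is not a lower bound on the change. Knockout library 1 carried the ratio, which was 4.1 for it alone and 1.4 for knockout library 2 alone. With no filter on low counts Mecom was tested among 17370 genes and did not pass (p 0.030, edgeR adjusted p 0.15). Prdm16, the paralogue of Mecom, was counted in all libraries, at 1.49 and 1.48 CPM in the wild-type and 0.467 and 1.04 CPM in the knockout libraries (log2 fold change -0.95 ± 0.64, adjusted p 0.36).

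**Figure D2:**
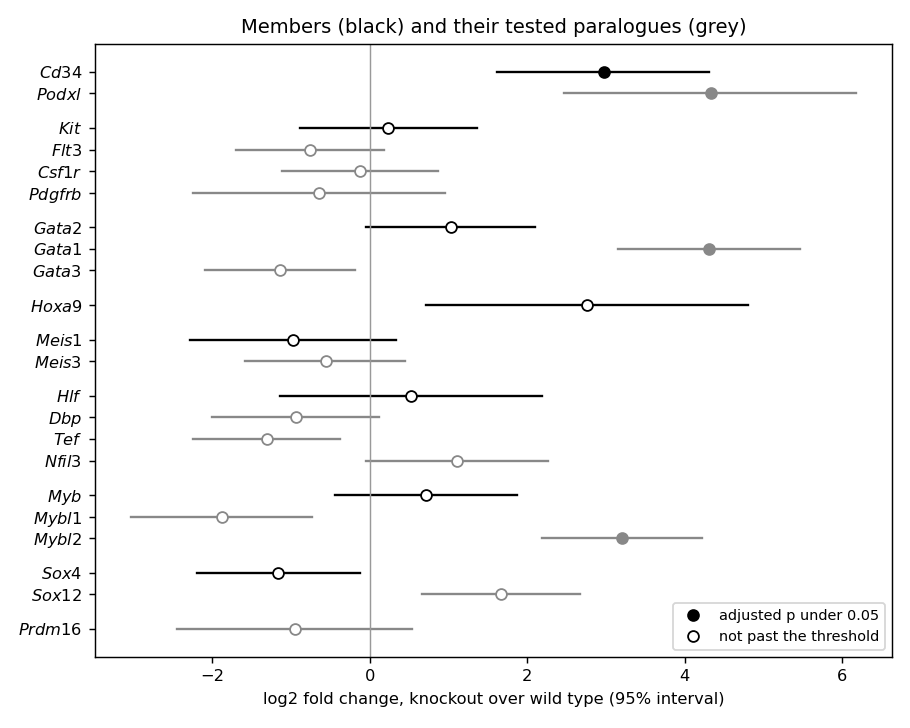
Log2 fold change of knockout over wild type with its 95% interval for the 8 tested members (black) and the 14 tested paralogues of the members (grey), filled where the adjusted p was under 0.05. Cd34 (2.97) and its paralogue Podxl (4.33) are filled, Kit and its 3 relatives lie near or below 0, and Gata1 (4.31) stands far to the right of Gata2 (1.03).

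Paralogues of the members gave a mixed picture. Of 14 tested, 3 rose and 0 fell (4 higher and 3 lower with an unadjusted p under 0.05; 4 and 2 by DESeq2, 3 and 0 by limma-voom). Podxl, the sialomucin podocalyxin of the Cd34 family, rose from 5 and 25 counts in wild type to 127 and 355 in knockout (4.33 ± 0.79, adjusted p 0.023). The other relative, Podxl2, had too few counts to test. Mybl2, the Myb relative of dividing cells, rose by 3.20 ± 0.43 (adjusted p 0.012), and Mybl1 had 4.24 and 4.64 CPM in the wild-type and 1.13 and 1.27 CPM in the knockout libraries (-1.88 ± 0.49, adjusted p 0.068). With either wild-type library left out Mybl1 passed (adjusted p 0.016 and 0.041). Myb itself lay between these values. Sox12, of the same SoxC group as Sox4, had 7.16 and 4.43 CPM in the wild-type and 20.7 and 16.2 CPM in the knockout libraries, opposite to Sox4 in direction (1.67 ± 0.43, adjusted p 0.066, and 0.0019 and 0.038 with either wild-type library left out). The receptor kinases nearest to Kit, Flt3 (-0.76), Csf1r (-0.13) and Pdgfrb (-0.65), had adjusted p of 0.26, 0.87 and 0.56, and Csf1r was at 0.28 without wild-type library 1. Among relatives of Hlf, Tef (-1.31) and Dbp (-0.94) had lower and Nfil3 (1.11) higher values, with adjusted p of 0.093, 0.22 and 0.20. With a wild-type library left out Tef passed in both cases, Nfil3 was at 1.77 without the first and 0.65 without the second, and Dbp at -0.42 and -1.33. Leaving out wild-type library 1 gave 5 higher and 3 lower calls among the paralogues, and leaving out wild-type library 2 gave 4 and 3.

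Most other genes linked to stem cells had lower values or did not pass. In a list of 19 such genes 14 were tested, 5 had a higher fold change, 1 rose and 0 fell (2 higher and 1 lower with an unadjusted p under 0.05; 1 and 1 by DESeq2, 1 and 0 by limma-voom), with a median of -0.34 (0.14 without wild-type library 1). The riser was Pdzk1ip1, a small membrane protein gene close to Tal1 that is also active in erythroid cells, at 6.05 and 7.68 CPM in the wild-type and 292 and 114 CPM in the knockout libraries (4.89 ± 0.59, adjusted p 0.011). Slamf1, which encodes the CD150 antigen of stem cells and also of lymphocytes, had 17.6 and 21.6 CPM in the wild-type and 6.58 and 6.90 CPM in the knockout libraries (-1.54 ± 0.38, adjusted p 0.060), a value that passed with either wild-type library left out (adjusted p 0.0029 and 0.025). Leaving out wild-type library 2 gave 3 higher and 2 lower calls among these genes, and leaving out wild-type library 1 gave 1 and 1.

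Factors that bind DNA with Gata2 in progenitors, and their partners, had values in both directions. Of 14 tested, 4 rose and 0 fell (5 higher and 1 lower with an unadjusted p under 0.05; 5 and 0 by DESeq2, 4 and 0 by limma-voom), and the median was 0.75. Erg, an ETS factor of stem cells and endothelium, had 14 and 25 wild-type counts and 146 and 459 knockout counts (4.25 ± 0.61, adjusted p 0.013). Tal1 (3.78 ± 0.69), Gfi1b (4.07 ± 0.51) and Zfpm1 (2.53 ± 0.44), which work with Gata1 in erythroid cells and megakaryocytes, had adjusted p of 0.022, 0.011 and 0.020, and Zfpm1 had 0.068 without knockout library 1. Fli1, the ETS factor closest to Erg, had a negative value (-1.25 ± 0.46, adjusted p 0.14), as did Runx1 (-0.55 ± 0.41, adjusted p 0.41), and Lmo2 (1.56) and Lyl1 (0.99) had adjusted p of 0.067 and 0.24. Leaving out wild-type library 1 gave 7 higher and 2 lower calls among the 14. Beside Cd34, Podxl and Erg, all 3 of them also active in endothelium, 1 of 9 tested endothelial markers rose: Egfl7 (2.48 ± 0.55, adjusted p 0.043, and 0.24 without knockout library 1 or 0.064 with library totals alone). Pecam1, the most abundant marker, had 131 and 152 CPM in the wild-type and 60.0 and 62.9 CPM in the knockout libraries, and the list summed to 167 to 188 and to 120 to 130 CPM. Without Pecam1, a sum added after the values were seen, the other 12 genes had 36 to 36.1 CPM in wild type and 57.6 to 69.8 CPM in knockout. Eng (1.62), Vwf (1.48) and Tie1 (1.72) had higher values with adjusted p of 0.056, 0.072 and 0.18, Cdh5 a lower value (-1.55, adjusted p 0.15), and DESeq2 called 3 markers higher and 1 lower. The median of the endothelial list was 0.69, but it was negative without wild-type library 2 and without either knockout library (-0.36 to -0.05), and with no filter (-0.26). With 1 wild-type library left out 3 endothelial genes passed as higher and 1 as lower, and 0 passed as higher without knockout library 1. Fibroblast markers were near 0 in all libraries, at 2.57 to 2.98 and 1.13 to 1.46 CPM for 9 genes together, with Lum at 0. The part of these cells in the rise of Cd34 was not tested.

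Genes of committed granulocyte and erythroid progenitors had higher medians than the members. In the granulocyte and monocyte progenitor list 7 of 10 rose, with a median of 6.29 and Mpo, Ctsg, Ms4a3 and Fcnb at 6.24 to 6.84, and in the erythroid progenitor list 8 of 10 rose, with a median of 3.86 and Gata1, Klf1, Epor and Car1 at 3.76 to 4.58. The lymphoid progenitor list had 0 of 8 passing and a median of -1.07. In it 4 were lower and 0 higher with an unadjusted edgeR p under 0.05. DESeq2 called 3 lower and limma-voom 0. Ebf1 was at -1.52 and Il7r at -1.60 (adjusted p 0.10 and 0.11). Only Vpreb1 had a higher point value (1.71, adjusted p 0.24). Il7r is also in the T cell list, and the T and B cell medians were -1.11 and -1.18. The part of mature lymphocytes in these values was not tested. The sizes of Ebf1 and Il7r depended on the wild-type libraries. They were -2.02 and -2.12 when library 1 was left out, and -0.77 and -0.83 when library 2 was. Leaving out wild-type library 1 gave 3 lower calls among lymphoid progenitor genes, and leaving out wild-type library 2 or knockout library 2 gave 1. Neutrophil markers rose in 8 of 10 cases beside the granulocyte and erythroid progenitor lists. They summed to 415 to 993 CPM in wild type and 26300 to 28400 CPM in knockout. Retnlg (1.86, adjusted p 0.13) and Cxcr2 (1.41, adjusted p 0.065) had higher values but did not pass. Of 8 megakaryocyte and platelet markers 1 rose, Gp9 (3.50, and 2.54 without knockout library 1). A higher point value was found for 7, with a list median of 0.80. Both knockout libraries lay above both wild-type libraries for 5 markers and below them for 1, Itgb3. Over all tested genes 30.3% lay above and 30.1% below in this way. The list summed to 54.5 to 70.2 and 58.7 to 72.7 CPM, and without Itgb3 (-1.02, adjusted p 0.18), its most abundant gene, to 14.4 to 17.6 and 30.1 to 55.6 CPM.

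**Figure D3:**
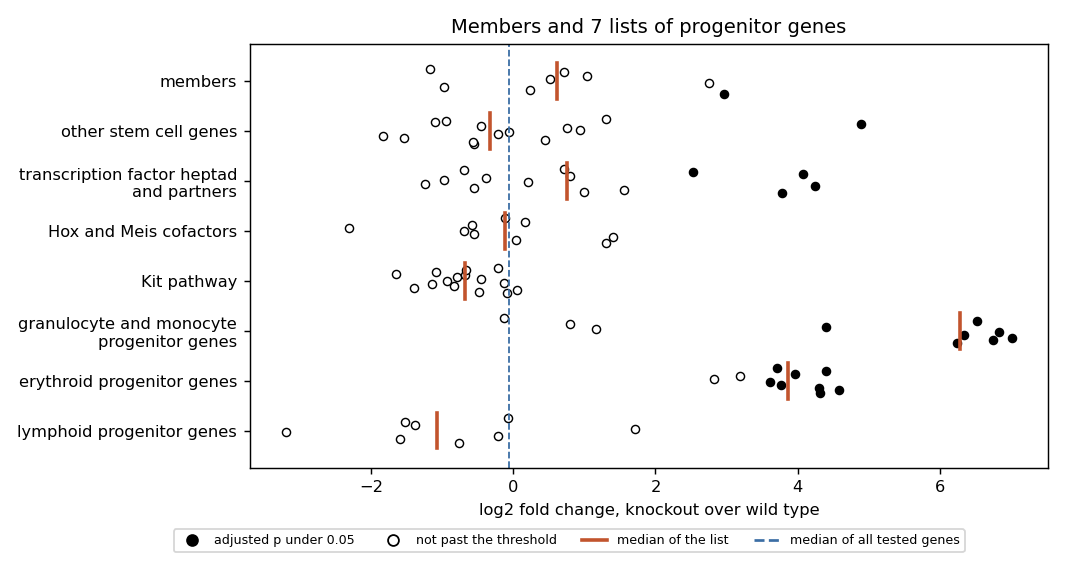
Log2 fold change of knockout over wild type for the 8 tested members and for each tested gene of 7 lists, filled where the adjusted p was under 0.05, with the list's median in orange and the median of all tested genes (-0.056) dashed. Filled points gather in the granulocyte and erythroid progenitor lists, whose medians are 6.29 and 3.86, against 0.615 for the members.

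Ratios of 2 genes within a library do not depend on how libraries are scaled. For 10 pairs, chosen after the values were seen, counts of one gene per 100 counts of the other were compared. Per 100 counts of Kit there were 5.13 and 4.44 of Cd34 in the wild-type and 33.6 and 30.8 in the knockout libraries, so the libraries of a genotype were close and the genotypes far apart. Per 100 counts of Meis1 it had 44.0 and 46.9 against 464 and 934, and per 100 counts of Hlf 114 and 165 against 850 and 710. Per 100 counts of Gata1 there were 43.4 and 20.4 of Gata2 against 1.98 and 4.97. Kit per 100 counts of Myb was 70.2 and 41.3 against 29.7 and 40.1, a narrow gap. Per 100 counts of Podxl there were 660 and 152 of Cd34 against 80.3 and 100. All 10 pairs had ratios that did not overlap between genotypes. Since the pairs were chosen after the values were seen, that count describes the choice and supports nothing. Of single tested genes, 30.3% lay higher and 30.1% lower in knockout without overlap, and the share over all pairs was not computed. An exact permutation test of 2 against 2 libraries cannot go below a two-sided p of 0.333.

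**Figure D4:**
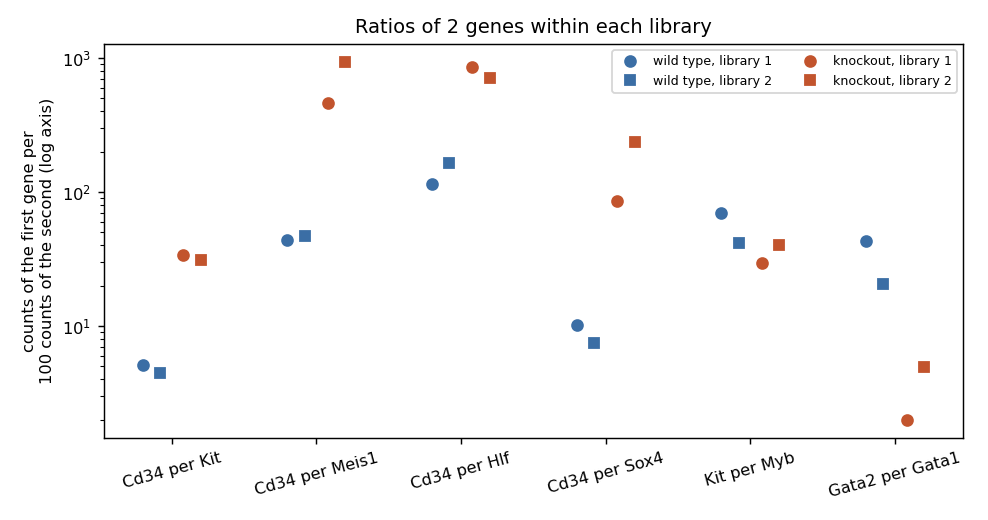
Counts of the first gene per 100 counts of the second (log axis) in each library, for 6 pairs. Cd34 per Kit lies at 4.44 to 5.13 in wild type and 30.8 to 33.6 in knockout, and Gata2 per Gata1 at 20.4 to 43.4 and 1.98 to 4.97.

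How far each member's value moved with the processing differed between members. Over 13 other settings Cd34 ranged from 2.35 to 3.39 and passed in 12. Meis1 kept a negative value in all 13, from -1.48 to -0.96, and passed in 0. Sox4 was negative in all 13 as well, from -1.73 to -0.85, and passed in 2. Hoxa9 was positive in the 12 settings that tested it, from 2.01 to 4.34, and passed in 3. Gata2 (0.60 to 1.36) and Myb (0.25 to 1.37) were positive in all 13 and passed in 2 each. Kit changed sign in 2 settings and Hlf in 1, and neither passed in any.

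**Figure D5:**
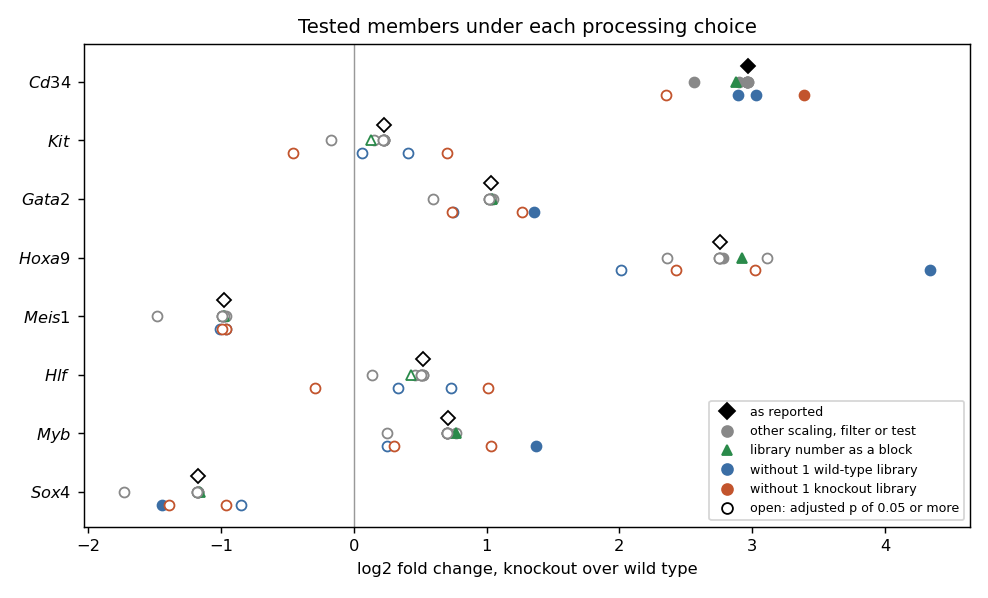
Log2 fold change of the 8 tested members under each processing choice, with filled symbols where the adjusted p was under 0.05, diamonds for the reported value, grey for other scalings, filters and tests, a green triangle for the library number as a block, and blue or orange circles where a wild-type or knockout library was left out. Cd34 stays between 2.35 and 3.39, while Kit and Hlf have values on both sides of 0.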

How the data were processed

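The authors deposited 1 table of whole-number counts per Ensembl gene for 4 libraries of ribosome-depleted RNA. Tools listed in the submitters' processing notes, with no role or order, are RSEM 1.2.25, STAR 2.5.0 and SAMtools 1.18, and the build is GRCm38. The authors deposited them as whole numbers, and since RSEM gives estimated counts they were handled as such. Rounding changed 0 values. The library kit was stranded per the labels' protocols. The sources used here give neither the annotation release nor the strand setting of the counting. The 92 spike-in rows, with 0 counts, were left out. Symbols, loci and exon lengths came from GENCODE M21 on GRCm38 (25251 of 25509 gene rows matched), and promoters from RefSeq, where all 9 members matched. Another 8139 gene rows held 0 counts.

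Groups and library numbers came from the titles. Knockout and wild type were compared with edgeR 4.0.16 (R 4.3.3): TMM scaling, filterByExpr, robust quasi-likelihood F test, genotype as the only term, 2 residual degrees of freedom and Benjamini-Hochberg adjustment over 13532 genes. A gene passed ("rose" or "fell") when its adjusted p was under 0.05. An adjusted p is from this test unless another is named. CPM are TMM-scaled, with the SD of 2 libraries. SE is the absolute log2 fold change over the square root of F, and 95% intervals are not adjusted for the number of genes. P-values set the difference between genotypes against the spread between libraries of a genotype, with estimates of that spread shared over genes. The spread includes the difference in Xist pattern, which has no term in this fit. The limit of 3 counts covers counting error only. The libraries of a genotype were not duplicates (chi-square per degree of freedom 476 and 345). Distances used log2(CPM + 0.1). The fit was tested on simulated data with a smaller spread than these libraries have and no difference between library numbers. That test therefore does not show how the fit performs at the spread seen here.

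Alternatives were DESeq2 size factors, library totals alone, DESeq2 1.42.0, limma-voom (limma 3.58.1), 2 other filters, non-robust dispersion, removal of haemoglobin and mitochondrial genes, a block on the library number, a fit without each library, and a threshold of 0.1. Named genes were all members, Trim21, up to 4 genes of each progenitor list with the smallest p (2 where 0 passed), paralogues, cell type markers, and the 3 genes nearest to a member that passed. Lyl1, Lmo2, Runx1, Fli1, Kitl and Vpreb1 were added after their values were seen. A gene that this rule names is not reported here. The members and lists were chosen with earlier results of these data known.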

Additional observations from a re-analysis of the deposited data

How the results depend on the processing

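The rise of Cd34 held in 12 of 13 settings other than the threshold. Members passing as higher numbered 1 here, 2 by DESeq2 (where 11.6% of all genes passed as higher), 4 with the replicate number as a block (22.4%), and 0 to 3 with 1 library left out (16.4% without wild-type library 1, which gave the 3, and 6.3% without knockout library 2, which gave the 0). Members passing as lower numbered 0 here, 1 with the block (19.7%) and 0 to 1 with 1 library left out (14.6% without wild-type library 1). Kit was at -0.17 with library totals alone and at -0.46 to 0.70 with 1 library left out, Hlf at -0.29 to 1.01, Csf1r at -0.45 to 0.28 and Kitl at -0.79 to 1.27, and Kitl was at 0.21 by limma-voom and 0.15 with the block.

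Over all genes 798 passed as higher and 53 as lower. DESeq2 gave 1569 and 928, a fit of unfiltered genes 1278 and 490, the block 3036 and 2669, a threshold of 0.1 gave 1373 and 558, and leaving out 1 library 601 to 2300 and 30 to 2047. With library totals alone 782 and 1376 passed, as the median over all genes moved from -0.056 to -0.56. In the progenitor and paralogue lists 22 genes passed as higher and 0 as lower. With the block these were 34 and 21. Those passing as lower were 12 with library totals alone, 9 by DESeq2, 5 with no filter, 4 at a threshold of 0.1 and 0 to 15 with 1 library left out, when 23 to 30 passed as higher.

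The library numbers do not pair mice by any label. Deviations of same-numbered libraries from their genotype's mean had a correlation of 0.54 across genes, and a block on the number also separates the Xist patterns. With that block Cd34 (2.88), Hoxa9 (2.92), Gata2 (1.04) and Myb (0.77) passed as higher and Sox4 (-1.16) as lower. These fits and those lacking a library keep 1 residual degree of freedom, and the spread of a lone library is taken from the other genotype. Common dispersion was 0.14, and 0.087 to 0.20 with 1 library left out. On the TPM scale Myb stayed first and Mecom last. Hoxa9 and Hlf were not tested under the stricter filter.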
